A study of Mus musculus with 12 samples.

Results

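The type II hair keratins Krt81, Krt82, Krt83, Krt84, Krt85 and Krt86 are the basic keratins of the hair shaft. They were taken by name, and these 6 genes were found among the 24062 gene symbols counted. The samples were wounds of the back skin of C57BL/6 mice made diabetic with streptozotocin, a toxin of the insulin-producing cells. Each of 12 mice gave 1 RNA sequencing library, and there were 4 treatments with 3 mice each. The treatments are named pre-MCS-01, post-MCS-01 and DSCG, beside a blank that served here as the control. MCS-01 is a mast cell stabilizer known by its code name, and DSCG commonly stands for disodium cromoglycate, an older drug of that kind. All 4 groups share the strain, the diabetes model and the wound. What pre and post refer to, the doses, the times and the age of the mice are not given in the sources used here.

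A hair keratin filament is built from pairs of 1 acidic (type I) and 1 basic (type II) chain, and sulphur-rich keratin-associated proteins cross-link the filaments into the hard shaft. The shaft is made in the lower part of growing (anagen) follicles, so its keratins mark follicles in the growth phase. In human follicles, KRT85 appears early in the hair matrix and its cuticle, KRT82 is a keratin of the cuticle, and KRT81, KRT83 and KRT86 are cortex keratins in which mutations cause the fragile-hair disorder monilethrix. Human KRT84 is best known from the filiform papillae of the tongue.

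Of the members, 5 have coordinates in the GENCODE M21 annotation of the mouse build GRCm38, the assembly that mm10 names. They lie within 91.6 kb of chromosome 15, in the order Krt81 (chr15:101459061-101463751, minus strand), Krt86 (chr15:101473478-101479986, plus strand), Krt83 (chr15:101485130-101491512, minus strand), Krt84 (chr15:101525026-101532820, minus strand) and Krt82 (chr15:101541214-101550667, minus strand). None of these genes overlaps another annotated gene. Krt85 has no coordinates here.

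The coding sequences fall into a near-identical trio and 2 members that stand apart, which bears on how reads were counted. Krt81 was 93.2% identical to Krt83 and 92.9% identical to Krt86, and Krt83 was 91.4% identical to Krt86. Krt82 was 64.9% to 65.9% identical to the trio, and Krt84 was 57.5% to 59.2% identical to the other members compared. The longest stretch shared by Krt81 and Krt86 without a difference was 374 bases. The first window shown is the first 60-base stretch of Krt86, by position, that is the same in all 3 genes, and need not be the only one. The other is the 60-base stretch in which Krt81 and Krt83 differ most from Krt86, by 18 and 20 bases. Capitals mark the bases that are not the same in all 3 genes; sequences are from the GENCODE M21 transcripts, 5′ to 3′.
Krt86, coding bases 355 to 414, the same in Krt81 and, at 349 to 408, in Krt83: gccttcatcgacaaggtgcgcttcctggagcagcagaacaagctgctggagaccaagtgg
Krt86, coding bases 1337 to 1396: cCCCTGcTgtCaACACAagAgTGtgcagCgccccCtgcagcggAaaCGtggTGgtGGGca
Krt81, coding bases 1334 to 1393: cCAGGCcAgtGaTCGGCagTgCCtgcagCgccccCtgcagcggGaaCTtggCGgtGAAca
Krt83, coding bases 1328 to 1387: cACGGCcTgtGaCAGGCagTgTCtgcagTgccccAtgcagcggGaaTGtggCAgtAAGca

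Alignments to more than 1 place are tallied apart in the deposited files and are not in the gene counts. Over the longest transcripts, 43.5% of 50-base windows of Krt81, 43.3% of those of Krt86 and 23.2% of those of Krt83 also occur in another annotated gene, which is another of the trio or Krt87. For Krt82 and Krt84 it was 0. With windows of 100 bases the shares were 29.0% for Krt81, 24.6% for Krt86 and 5.43% for Krt83. The read length is not given in the sources used here. Counts of the trio are therefore uncertain in their absolute level and in how reads were split between them. Krt82 and Krt84 carry no such limit from windows shared with the annotated transcripts. Krt85 was not found among those transcripts, so windows shared with it could not be seen, and its own limit is not known.

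The promoters of Krt84 and Krt82 are shown because no promoter of another member was found by symbol. Krt81, Krt83, Krt85 and Krt86 could therefore not be compared with them. The 2 genes are neighbours, and Krt84 is the member that kept a level in the post-MCS-01 wounds described further on. Both promoters are RefSeq sequences of GRCm38.p6, minus strand, from 250 bases before to 50 bases after the start, 5′ to 3′. Capitals mark TTTAT or TTAAT on either strand, the core letters bound by HOXC13, a homeobox factor of the hair shaft.
Krt84, chr15:101532771-101533070: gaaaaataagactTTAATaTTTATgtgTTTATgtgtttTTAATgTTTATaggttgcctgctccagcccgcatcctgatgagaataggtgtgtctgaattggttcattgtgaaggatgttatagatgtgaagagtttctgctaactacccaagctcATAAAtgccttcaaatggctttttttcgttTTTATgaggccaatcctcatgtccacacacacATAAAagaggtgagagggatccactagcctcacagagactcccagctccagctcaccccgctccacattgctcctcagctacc
Krt82, chr15:101550610-101550909: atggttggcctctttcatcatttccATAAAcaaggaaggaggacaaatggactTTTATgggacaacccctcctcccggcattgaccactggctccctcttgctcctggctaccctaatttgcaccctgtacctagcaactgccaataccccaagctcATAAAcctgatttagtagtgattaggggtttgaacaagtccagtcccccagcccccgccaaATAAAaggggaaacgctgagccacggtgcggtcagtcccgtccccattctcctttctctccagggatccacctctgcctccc
TTTAT was matched 6 times in the Krt84 promoter and 4 times in that of Krt82, and 40% of all 32851 promoters of the same length hold it. TTAAT was matched 2 times in the Krt84 promoter and was not found in that of Krt82, and 27.1% of promoters hold it. The TATA box TATAAA was found 1 time for Krt84, on the opposite strand and overlapping a TTTAT match, and not for Krt82, against 13.6% of promoters. Only this exact form was searched for. Both promoters hold ATAAA, starting 33 bases before the Krt84 start and 32 bases before the Krt82 start, which lacks only the first letter of TATAAA. The search therefore does not show that Krt82 has no TATA-like element, and whether the capitals bind HOXC13 was not tested. ACGC, the FOXN1 core, was found 1 time for Krt82 and not for Krt84, against 55.3% of promoters, and CTTTG, the LEF1 and TCF core, was in neither, against 53.9%. The longest run shared by both is 14 bases, starting 102 bases before the Krt82 start and 104 bases before the Krt84 start. Of the 32851 promoters it is in these 2, with either strand searched. Promoters of Krt81, Krt83, Krt85 and Krt86 are not among the 32851, so whether they hold the run is not known.
Run shared by the Krt82 and Krt84 promoters: cccaagctcATAAA

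The libraries held 3835042 to 50461867 gene counts, with blank replicate 3 the shallow one and the next at 37702643. Levels are given as CPM, the counts of a gene per 1000000 gene counts of its library after TMM scaling. A count of 0 allows up to 3 counts, which is 0.786 CPM in blank replicate 3 and 0.0588 to 0.0852 CPM in the others, for counting error only. In 3 libraries long transcripts were low relative to the other libraries. The correlation across genes of relative level with length was -0.38 in pre-MCS-01 replicate 2, -0.33 in DSCG replicate 2 and -0.32 in blank replicate 3, and -0.06 to 0.34 elsewhere. Of all genes, 16267 passed the filter on low counts, the 6 members among them.

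Type II hair keratin RNA was abundant in pre-MCS-01 and blank wounds and in DSCG wounds other than replicate 1, and close to absent in post-MCS-01 wounds. The 6 members together had 292 to 1821 CPM in those abundant libraries, 45.8 CPM in DSCG replicate 1 and 4.06 to 6.55 CPM in post-MCS-01 wounds. Krt81, Krt82, Krt83, Krt85 and Krt86 were higher in pre-MCS-01 wounds than in post-MCS-01 wounds, with log2 fold changes of 8.55 to 11.11. These 5 were lower in post-MCS-01 wounds than in DSCG wounds, with log2 fold changes of -8.56 to -11.19. Against blank the post-MCS-01 values of the same 5 were lower in every library, but none passed the test. The exception was Krt84, which kept 3.21 to 5.61 CPM in post-MCS-01 wounds. The members together took 0.000433% to 0.000690% of gene counts in the 3 post-MCS-01 libraries, against 0.00449% to 0.165% in the 9 other libraries. In bulk tissue, fewer shaft-forming cells and less RNA per cell cannot be told apart.

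**Figure D1:**
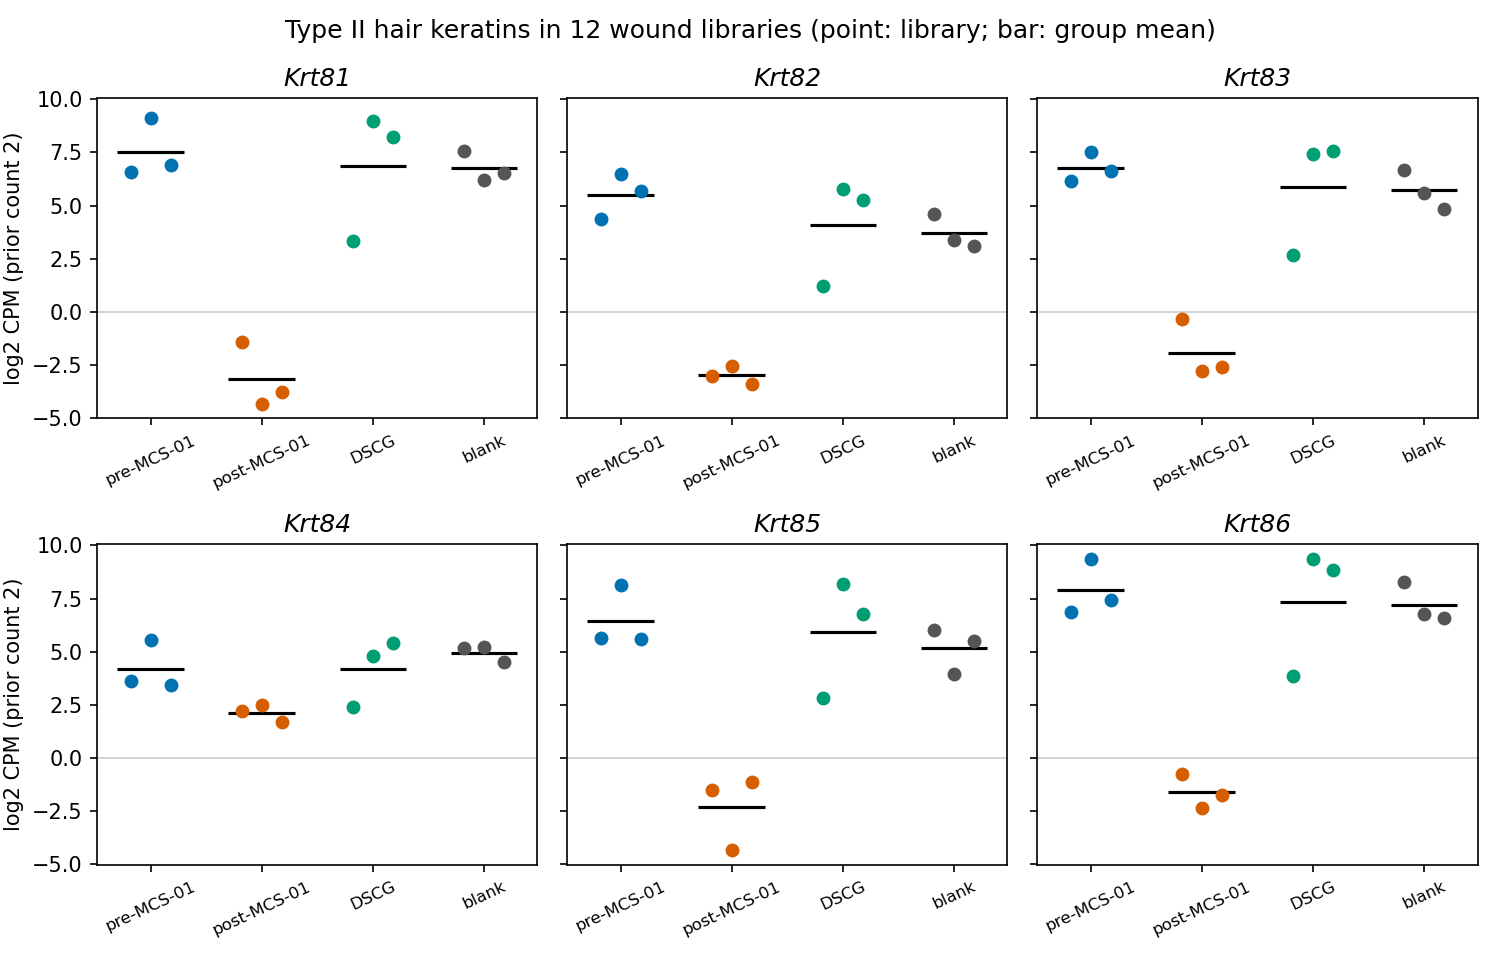
Levels of the 6 type II hair keratins in each library, as log2 CPM with a prior count of 2 added (1 point per library, bar at the mean of 3), by treatment group. For 5 members the post-MCS-01 points lie far under all other libraries, while Krt84 at 3.21 to 5.61 CPM lies just under or beside the lowest of the other groups, and DSCG replicate 1 is the lowest DSCG library for all 6.

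Among the cortex keratins, Krt86 had the highest CPM in each of the 9 libraries outside post-MCS-01. It had 117, 663 and 175 CPM in pre-MCS-01 wounds, 0.554, 0.144 and 0.252 CPM in post-MCS-01 wounds, 14.7, 649.8 and 454 CPM in DSCG wounds, and 314, 108 and 96.7 CPM in blank wounds. All post-MCS-01 libraries lay below all others, and the 3 other groups overlapped. Krt86 had 35667 reads in all in pre-MCS-01 wounds, 39 in post-MCS-01 wounds and 51596 in DSCG wounds. The log2 fold change was 9.97 ± 1.51 (SE) for pre-MCS-01 against post-MCS-01 (adjusted p = 0.0313, edgeR quasi-likelihood test) and -10.20 ± 1.52 for post-MCS-01 against DSCG (adjusted p = 0.0300).

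Krt81 had 94.3, 556 and 121 CPM in pre-MCS-01 wounds, 0.328, 0 and 0.0230 CPM in post-MCS-01 wounds, 10.1, 503 and 302 CPM in DSCG wounds, and 189, 72.4 and 90.9 CPM in blank wounds. The post-MCS-01 values stand for 13, 0 and 1 reads, and the other groups did not reach down to them. The fitted log2 fold changes were 11.11 ± 1.74 for pre-MCS-01 against post-MCS-01 (edgeR adjusted p = 0.0313) and -11.19 ± 1.74 for post-MCS-01 against DSCG (edgeR adjusted p = 0.0300). They rest on those 14 reads, and without post-MCS-01 replicate 1, with 1 read left, they were 14.03 and -14.13.

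Krt83 had 72.1, 181 and 97.7 CPM in pre-MCS-01 wounds, 0.731, 0.0960 and 0.115 CPM in post-MCS-01 wounds, 6.43, 172 and 188 CPM in DSCG wounds, and 102, 48.9 and 28.6 CPM in blank wounds. It was again lowest in the 3 post-MCS-01 libraries, with 38 reads in all, of which 29 came from replicate 1. Pre-MCS-01 exceeded post-MCS-01 by a log2 fold change of 8.55 ± 1.33 (edgeR adjusted p = 0.0313), and post-MCS-01 against DSCG gave -8.61 ± 1.33 (adjusted p = 0.0300).

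Krt85, which in human follicles appears in the matrix before the cortex keratins, had 49.4, 285 and 47.9 CPM in pre-MCS-01 wounds, 0.302, 0 and 0.413 CPM in post-MCS-01 wounds, 7.09, 289.5 and 111 CPM in DSCG wounds, and 64.4, 15.6 and 44.8 CPM in blank wounds. No post-MCS-01 library reached the lowest of the other libraries, DSCG replicate 1. The log2 fold changes were 9.04 ± 1.59 for pre-MCS-01 against post-MCS-01 (edgeR adjusted p = 0.0359) and -9.13 ± 1.60 for post-MCS-01 against DSCG (adjusted p = 0.0323).

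The cuticle keratin Krt82 had 20.7, 89.7 and 50.9 CPM in pre-MCS-01 wounds, 0.0756, 0.120 and 0.0459 CPM in post-MCS-01 wounds, 2.28, 54.3 and 37.8 CPM in DSCG wounds, and 23.9, 10.5 and 8.65 CPM in blank wounds. The post-MCS-01 values are 10 reads over 3 libraries, and all of them lay under every library of the other groups. The log2 fold changes were 9.33 ± 1.28 for pre-MCS-01 against post-MCS-01 (edgeR adjusted p = 0.0313) and -8.56 ± 1.26 for post-MCS-01 against DSCG (adjusted p = 0.0295).

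Krt84 had 12.2, 46.3 and 10.8 CPM in pre-MCS-01 wounds, 4.56, 5.61 and 3.21 CPM in post-MCS-01 wounds, 5.27, 27.4 and 42.6 CPM in DSCG wounds, and 35.9, 37.2 and 22.5 CPM in blank wounds. With 555 reads in the post-MCS-01 libraries, it was measured there well above the level that a count of 0 allows. The post-MCS-01 libraries lay below all pre-MCS-01 and all blank libraries and overlapped DSCG, through DSCG replicate 1. The log2 fold changes did not pass the test: 2.37 ± 0.71 for pre-MCS-01 against post-MCS-01 (edgeR adjusted p = 0.239), -2.49 ± 0.71 for post-MCS-01 against DSCG (adjusted p = 0.162) and -2.85 ± 0.73 for post-MCS-01 against blank (adjusted p = 0.163). DESeq2 called Krt84 in these 3 comparisons, with adjusted p values of 0.0220, 0.00826 and 0.00193.

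Over all genes tested, 0.824% passed the threshold of an adjusted p under 0.05 for pre-MCS-01 against post-MCS-01, with 0.805% higher in pre-MCS-01, against 5 of 6 members. The median log2 fold change of the members was 9.19, and that of all genes was 0.03. For post-MCS-01 against DSCG, 1.06% of genes passed and 0.916% were lower in post-MCS-01, against 5 of 6 members, with medians of -8.87 for the members and -0.01 for all genes. Both comparisons use the same post-MCS-01 libraries. Another tool, limma-voom, called 0 of the members in either, with adjusted p values for these 5 of 0.199 to 0.268 in the first and 0.197 to 0.236 in the second. In the second, limma-voom with quality weights and an edgeR fit of post-MCS-01 and DSCG alone also called 0, and that edgeR fit gave the 5 an adjusted p of 0.145. Groups did not overlap for 6 of 6 members in pre-MCS-01 against post-MCS-01, where 10.7% of genes were higher in this way, and for 5 of 6 in post-MCS-01 against DSCG, where 8.28% were lower.

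Against blank, no member passed the test for post-MCS-01, though all 6 lay below blank in every library. The edgeR adjusted p was 0.0721 for Krt81, Krt82, Krt83 and Krt86 and 0.0787 for Krt85, with log2 fold changes of -7.42 to -9.98 for these 5. In this comparison 0% of genes passed and 9.45% were lower without overlap. At an unadjusted p under 0.05 the count was 6 of 6 members and 9.35% of genes, DESeq2 and limma-voom with library quality weights called 6 members each, and limma-voom called 0. Without DSCG replicate 1, which shares in the estimate of spread, all 6 members passed.

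No test in the reported fit set pre-MCS-01, DSCG and blank wounds apart, and their libraries overlapped for all 6 members. Groups without overlap made up 14.4% of genes for pre-MCS-01 against blank, 3.68% for DSCG against blank and 5.12% for pre-MCS-01 against DSCG, against 0 of 6 members in each. For pre-MCS-01 against blank edgeR called 0 members and 0% of genes, with 1 of 6 members and 7.24% of genes at an unadjusted p under 0.05. That member was Krt82, at 53.7 ± 34.6 CPM in pre-MCS-01 wounds, against 14.3 ± 8.33 CPM in blank wounds (SD, n = 3 each), with a log2 fold change of 1.88 ± 0.85 (edgeR adjusted p = 0.688). For DSCG against blank and for pre-MCS-01 against DSCG, edgeR called 0 members and 0% of genes, with 0 of 6 members at an unadjusted p under 0.05 against 1.03% and 2.36% of genes. DESeq2 and limma-voom called no member in these 3 comparisons, and limma-voom with library quality weights called 1, Krt84 in pre-MCS-01 against blank. The joint test of the 4 groups also passed no member and 0% of genes, with 1369 genes at an unadjusted p under 0.05, the members at adjusted p values of 0.166 to 0.411, and 6 members called by DESeq2.

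**Figure D2:**
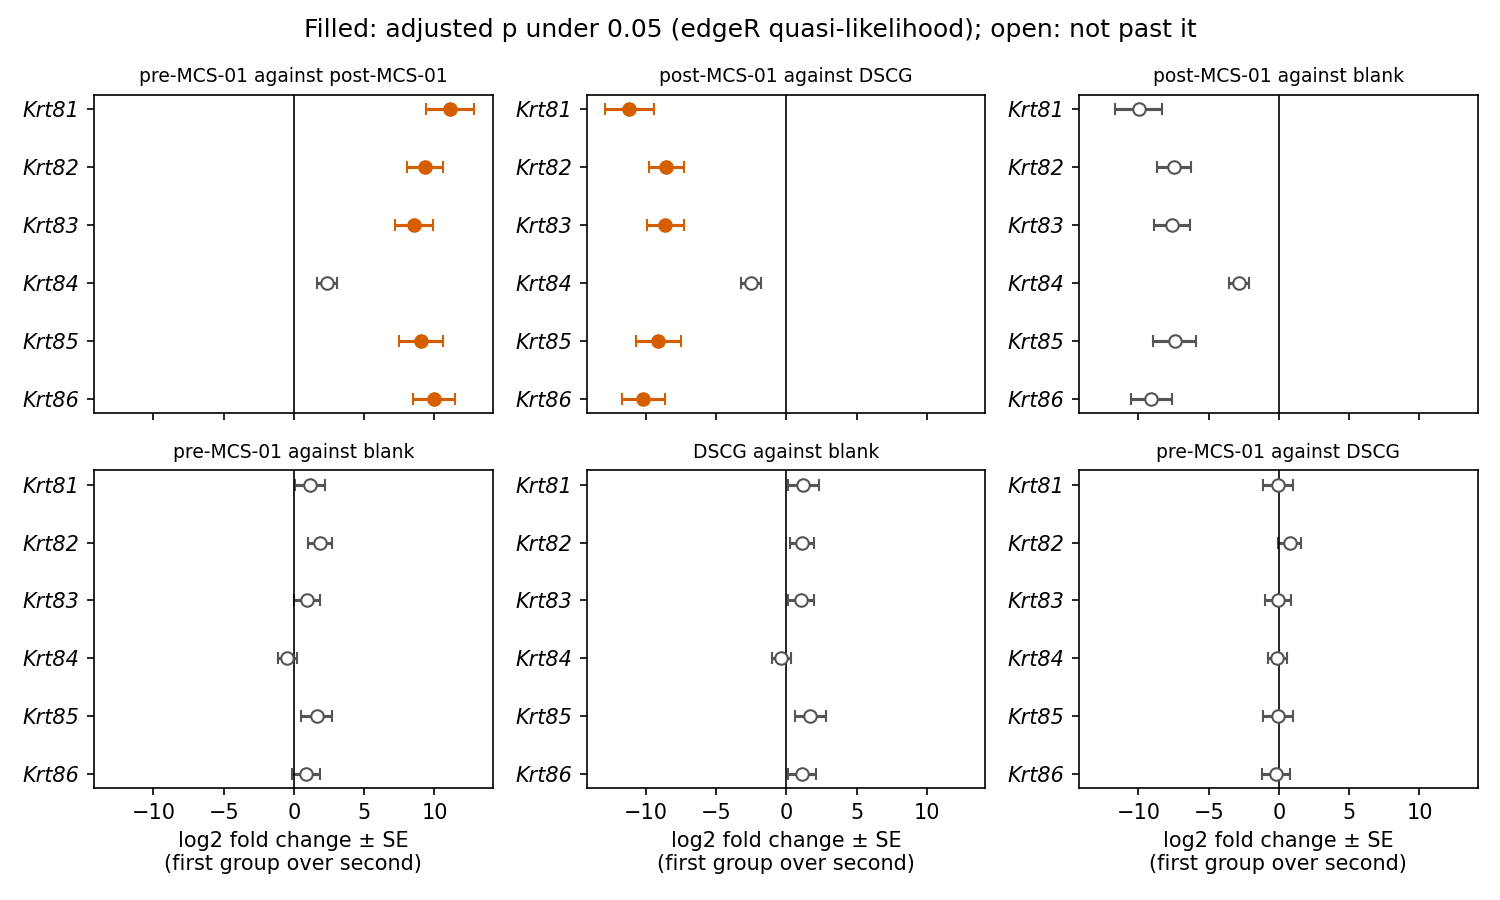
Log2 fold changes (first-named group over second, ± SE) of the 6 members in the 6 comparisons; filled points passed an adjusted p of 0.05. The 10 filled points lie at 8.55 to 11.11 for pre-MCS-01 against post-MCS-01 and at -8.56 to -11.19 for post-MCS-01 against DSCG, and Krt84 is open in all 6 panels.

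The mean level put the groups in the order DSCG, pre-MCS-01, blank, post-MCS-01 for Krt81, Krt83, Krt85 and Krt86. For Krt82 the order was pre-MCS-01, DSCG, blank, post-MCS-01, and for Krt84 it was blank, DSCG, pre-MCS-01, post-MCS-01. The first 3 places did not differ beyond the spread of the libraries for any member. The last place lay outside that spread for the 5 members other than Krt84, although its step to blank, the nearest in order, missed the adjusted threshold. Within groups, pre-MCS-01 replicate 2 was the highest library and DSCG replicate 1 the lowest for all 6 members. The other groups had no such common order: in post-MCS-01 the highest library was replicate 1 for Krt81, Krt83 and Krt86, replicate 2 for Krt82 and Krt84 and replicate 3 for Krt85. In blank the highest was replicate 1 for 5 members and replicate 2 for Krt84, and the lowest was replicate 2 for Krt81 and Krt85 and replicate 3 for the others. The highest DSCG library was 44.2 times the lowest for Krt86 and 23.8 times for Krt82, against 3.24 and 2.76 times in blank.

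Compared per kilobase of exon, which 5 members allow, the levels had a fixed order outside post-MCS-01. Krt86 exceeded Krt81, and Krt81 exceeded Krt83, in 9 of 9 libraries. Krt83 exceeded both Krt84 and Krt82 in 9 of 9, and those last 2 had no fixed order, with Krt82 above Krt84 in 5 of 9. In blank wounds the per-length levels were 88.1 ± 62.2 CPM per kb for Krt86, 55.4 ± 29.5 for Krt81, 32.5 ± 20.7 for Krt83, 12.1 ± 3.08 for Krt84 and 6.79 ± 3.95 for Krt82 (SD, n = 3). Over the range of the 9 libraries, the level of each member overlapped that of its neighbour in the order.

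In post-MCS-01 wounds Krt84 came first in 3 of 3 libraries. It made up 66.5% to 92.1% of the summed per-length level of the 5 members in post-MCS-01 wounds, against 1.49% to 10.6% in the 9 other libraries. Krt86 made up 3.18% to 10.9% in post-MCS-01 wounds, against 37.9% to 48.5% elsewhere, and Krt81 made up 0% to 5.95%, against 25.1% to 35.7%. The log2 ratio of Krt84 to Krt86 within a library averaged -3.71 in pre-MCS-01, 3.74 in post-MCS-01, -3.15 in DSCG and -2.25 in blank wounds. For each of the 5 partners and each of the 3 comparisons with post-MCS-01, the ratios did not overlap and the two-sided exact permutation test gave p = 0.1, the smallest that 3 against 3 allows. The same p of 0.1 and no overlap were found with all 5 partners for pre-MCS-01 against blank, where the ratio of Krt84 to Krt81 was -3.58 to -2.95 in pre-MCS-01 and -2.39 to -0.96 in blank wounds. Over the 30 ratios tested the adjusted p was 0.15 for all of these. With 0.1 as the smallest p, no ratio could have passed the threshold, so these tests decide nothing. The 5 partners are not separate evidence, because their ratios share Krt84 and the same libraries. Krt84 was also singled out with its levels known. In post-MCS-01 replicate 2, Krt81 and Krt85 had 0 reads, so the ratios to them, 6.82 each, depend on the added prior count.

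**Figure D3:**
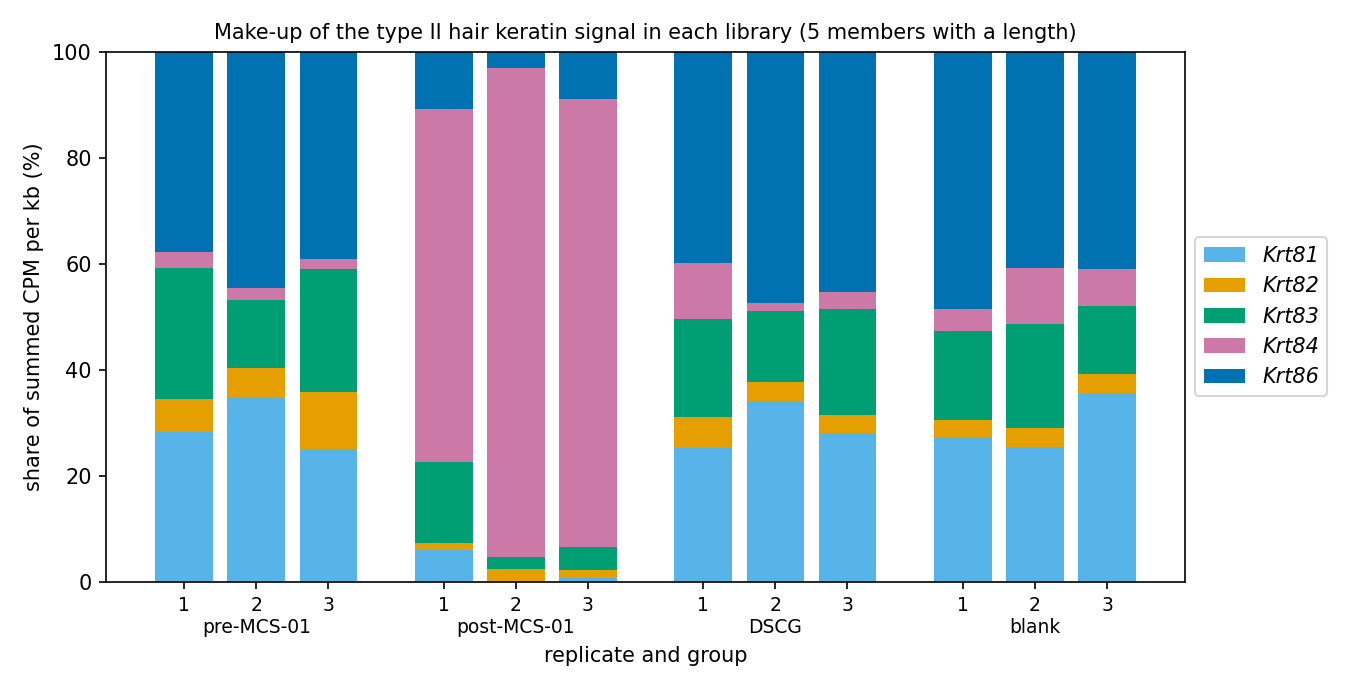
Share of each member in the summed CPM per kb of the 5 members with a known length, 1 bar per library. Krt84 fills 66.5% to 92.1% of the post-MCS-01 bars and 1.49% to 10.6% of the others, which are made mainly of Krt86 and Krt81.

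The calls depended on single libraries. For pre-MCS-01 against post-MCS-01, no member stayed past the threshold without pre-MCS-01 replicate 2, any 1 of the 3 post-MCS-01 libraries, DSCG replicate 3 or blank replicate 3, although all fold changes stayed positive. For post-MCS-01 against DSCG the same held, with all fold changes negative, on leaving out any 1 post-MCS-01 library, DSCG replicate 2, DSCG replicate 3 or blank replicate 3, and without DSCG replicate 1 all 6 members passed. Krt85 alone was lost without pre-MCS-01 replicate 3, blank replicate 1 or blank replicate 2 in the first comparison, and without blank replicate 2 in the second. Without pre-MCS-01 replicate 2, the highest of its group, the log2 fold changes of pre-MCS-01 against post-MCS-01 were 9.85 for Krt81, 8.75 for Krt82, 7.65 for Krt85 and 8.85 for Krt86. Without DSCG replicate 2, those of post-MCS-01 against DSCG were -10.39 for Krt81, -7.91 for Krt82, -7.92 for Krt85 and -9.53 for Krt86.

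Other libraries moved the fitted values as well. For pre-MCS-01 against post-MCS-01, Krt84 stood at 1.36 without pre-MCS-01 replicate 2, and for post-MCS-01 against DSCG it stood at -1.86 without DSCG replicate 3. Without post-MCS-01 replicate 1, Krt83 stood at 10.02 for pre-MCS-01 against post-MCS-01 and -10.10 for post-MCS-01 against DSCG, and Krt86 at 10.57 and -10.81. Without post-MCS-01 replicate 2, Krt81 stood at 10.46 and -10.56 and Krt85 at 8.39 and -8.50, and without post-MCS-01 replicate 3 Krt85 stood at 9.67 and -9.78. For post-MCS-01 against blank, Krt81 stood at -12.95, Krt83 at -9.11 and Krt86 at -9.73 without post-MCS-01 replicate 1. Without post-MCS-01 replicate 2, Krt81 stood at -9.38 and Krt85 at -6.82 in that comparison, and Krt85 at -8.09 without post-MCS-01 replicate 3. Without blank replicate 1, Krt82 stood at -6.85, Krt83 at -6.96 and Krt86 at -8.33. Without the 3 libraries low in long transcripts, edgeR called 0 members in pre-MCS-01 against post-MCS-01 and in post-MCS-01 against DSCG, with log2 fold changes for Krt86 of 8.83 and -9.52.

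**Figure D4:**
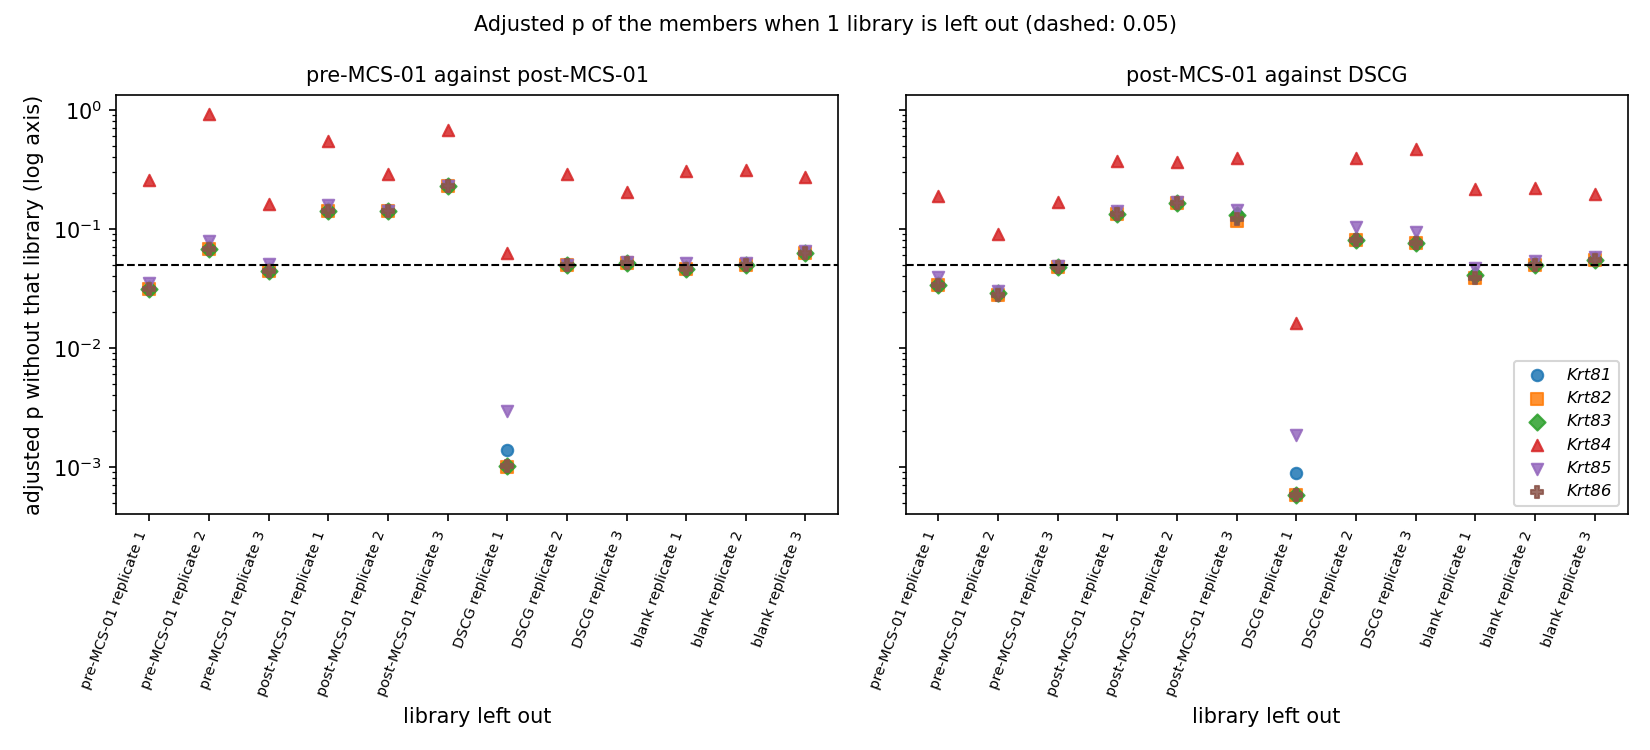
Adjusted p (log axis) of each member when the library named on the horizontal axis is left out, for pre-MCS-01 against post-MCS-01 and for post-MCS-01 against DSCG; the dashed line is 0.05. Leaving out any post-MCS-01 library puts all points above the line. Leaving out DSCG replicate 1 gives every member its lowest adjusted p in both panels, with Krt84 at 0.0629 for pre-MCS-01 against post-MCS-01 and 0.0163 for post-MCS-01 against DSCG (edgeR).

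The type I partners of the hair shaft moved with the members. Of 9 type I hair keratins, 9 were higher in pre-MCS-01 wounds than in post-MCS-01 wounds and 9 were lower in post-MCS-01 wounds than in DSCG wounds, with median log2 fold changes of 10.25 and -9.39. Krt33a averaged 325 ± 274 CPM in pre-MCS-01, 0.198 ± 0.200 in post-MCS-01, 341 ± 287 in DSCG and 160.0 ± 109.8 CPM in blank wounds (SD, n = 3 each). Krt31 changed by 10.25 ± 1.47 and -10.36 ± 1.48 on the log2 scale, Krt33b by 10.54 ± 1.62 and -10.55 ± 1.62, and Krt40, with 1 read in post-MCS-01 wounds, by 10.38 ± 1.66 and -9.39 ± 1.65. The summed per-length level of the 5 type II members was 0.947, 1.64 and 0.423 times that of the 9 type I genes in post-MCS-01 wounds, against 0.341 to 0.578 times in the 9 other libraries. The type II sum in post-MCS-01 wounds was mostly Krt84, and with Krt84 left out, a choice made after seeing the data, the ratio was 0.317, 0.130 and 0.0657 in post-MCS-01 wounds, against 0.305 to 0.518 in the 9 other libraries. With Krt84 included, post-MCS-01 replicate 3 lay inside the range of the other groups, and the rest of its group lay above it. With Krt84 left out, post-MCS-01 replicate 1 lay inside that range, and the rest of its group lay below it. Without Krt84 the type II sum in post-MCS-01 wounds rested on 10 to 39 reads per member.

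**Figure D5:**
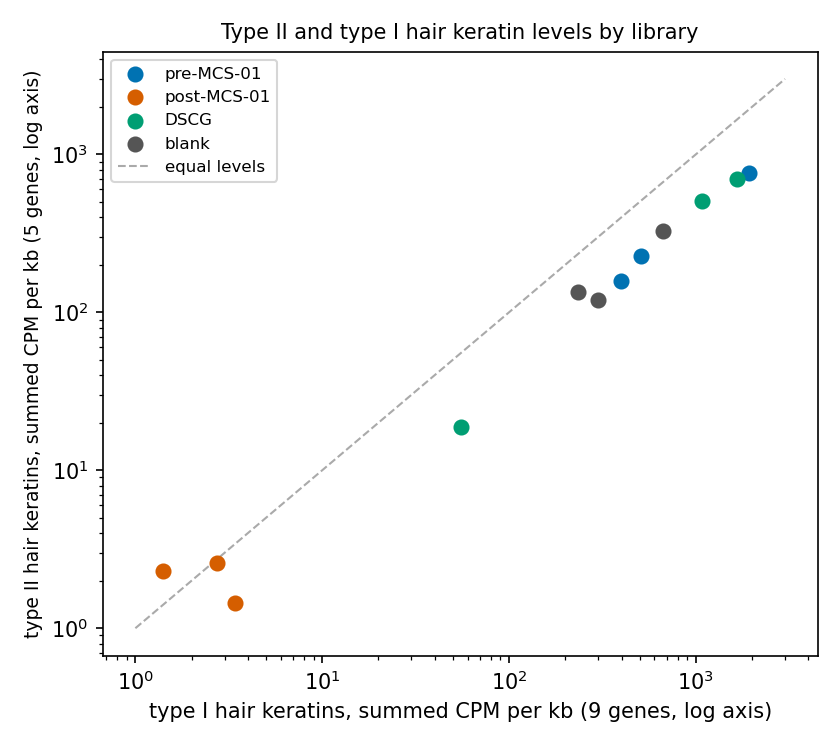
Summed CPM per kb of the 5 type II members (vertical, log axis) against that of the 9 type I hair keratins (horizontal, log axis), 1 point per library; the dashed line marks equal levels. The post-MCS-01 libraries, at far lower levels, lie at ratios of 0.423 to 1.64 with Krt84 included, and the other libraries at 0.341 to 0.578.

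Keratins of the inner root sheath, the sleeve that moulds the growing shaft, also changed. Of 10 genes, 9 passed in each of the same comparisons, with medians of 7.97 for pre-MCS-01 against post-MCS-01 and -8.55 for post-MCS-01 against DSCG. Tchh, the trichohyalin of the sheath, averaged 5612 ± 1515 CPM in pre-MCS-01, 31.5 ± 9.53 in post-MCS-01, 7592 ± 8257 in DSCG and 4175 ± 2869 CPM in blank wounds, and Krt72, Krt26 and Krt27 were among the other 8. The companion layer keratin Krt75 did not pass, at 3.40 ± 0.89 (adjusted p = 0.157) and -3.73 ± 0.91 (adjusted p = 0.0958). Of 18 other type II keratins tested, 4 passed in each comparison, and these were the sheath keratins Krt71, Krt72, Krt73 and Krt74. The median of that list was 0.58 for pre-MCS-01 against post-MCS-01 and -0.34 for post-MCS-01 against DSCG.

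Of 16 regulators of shaft differentiation, 4 passed in 1 comparison each. Msx1, a homeobox factor of the hair matrix, was higher in pre-MCS-01 wounds than in post-MCS-01 wounds (log2 fold change 3.37 ± 0.59, edgeR adjusted p = 0.0359). Another 3, all homeobox genes, were lower in post-MCS-01 wounds than in DSCG wounds. Their log2 fold changes were -3.72 ± 0.75 for Hoxc13 (adjusted p = 0.0431), -3.46 ± 0.69 for Dlx3 (adjusted p = 0.0414) and -3.80 ± 0.80 for Msx2 (adjusted p = 0.0497). Hoxc13 lay at 76.0 to 129 CPM in pre-MCS-01, 4.29 to 12.1 in post-MCS-01, 15.2 to 178 in DSCG and 42.4 to 106 CPM in blank wounds. The medians of the 16 were 1.27 and -1.25. Of 10 genes of shaft structure and cross-linking, 6 passed for pre-MCS-01 against post-MCS-01 and 5 for post-MCS-01 against DSCG, Lyg2, Padi3, Crym and S100a3 in both.

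Markers of other cells of the skin were counted beside these results. Of 9 melanocyte markers, the pigment cells of the hair bulb, 0 passed edgeR in any comparison, although 8 of 9 had an unadjusted p under 0.05 for pre-MCS-01 against post-MCS-01 and 8 of 9 for post-MCS-01 against DSCG, where 10.2% and 11.3% of all genes did. Their summed level was 193 to 906 CPM in pre-MCS-01, 29.5 to 77.4 in post-MCS-01, 121 to 445 in DSCG and 106 to 247 CPM in blank wounds, and none of the 9 was at 0 in a group. The part of these markers in the result was not tested. The summed markers of the interfollicular epidermis overlapped between all groups, at 35690.4 to 62722 CPM in pre-MCS-01, 23444.5 to 51728 in post-MCS-01, 19995 to 72747 in DSCG and 25461 to 51678 CPM in blank wounds. By gene, 8 of the 8 tested had a positive log2 fold change for pre-MCS-01 against post-MCS-01, with a median of 0.62. For post-MCS-01 against blank 3 were positive and 5 negative, and against DSCG 1 was positive and 7 negative. Ivl, at 33.9 to 77.2 CPM in post-MCS-01 wounds, lay there below every library of the other groups. Summed cell cycle genes were at 338 to 455 CPM in pre-MCS-01, 234 to 264 in post-MCS-01, 216 to 365 in DSCG and 158 to 318 CPM in blank wounds. Summed neutrophil markers were at 3972 to 6395 CPM in pre-MCS-01, 4431 to 9983 in post-MCS-01, 28.9 to 3649 in DSCG and 485 to 879 CPM in blank wounds. This sum was mostly S100a8 and S100a9, which are also on the wound-edge keratinocyte list, so it does not tell neutrophils from such keratinocytes. In the same order of groups, S100a9 averaged 3123, 4415, 959 and 448 CPM. Cxcr2 averaged 26.7, 44.3, 15.7 and 12.4 CPM, and Mmp8 averaged 3.75, 6.48, 1.24 and 3.21 CPM. Summed macrophage markers were at 446 to 648 CPM in pre-MCS-01, 769 to 1358 in post-MCS-01, 552 to 1028 in DSCG and 808 to 992 CPM in blank wounds. Between pre-MCS-01 and post-MCS-01 wounds, the cell cycle and macrophage sums did not overlap and the neutrophil sums did. The part of these sums in the keratin result was not tested. Among the lists for wound-edge keratinocytes, follicle stem cells, dermal papilla, sebaceous gland, cell cycle, neutrophils, macrophages, fibroblasts and skeletal muscle and that of the epidermis, 0 genes passed edgeR in any comparison. Of their 67 tested genes, 12 had an unadjusted p under 0.05 for pre-MCS-01 against post-MCS-01, where 10.2% of all genes did. For post-MCS-01 against DSCG there were 8, where 11.3% of all genes did. Against blank there were 19 for pre-MCS-01, where 7.24% of all genes did, and 11 for post-MCS-01, where 9.35% did. DSCG against blank had 2, beside 1.03% of all genes, and pre-MCS-01 against DSCG had 4, beside 2.36%. In the list for tongue and nail 1 of 4 tested genes passed, Krt36, also a type I hair keratin. Krt84, itself a member, is another of these 4, beside Krt4 and Krt76.

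The genes most like the members were found over the 12 libraries as those with the smallest root mean square difference from the mean centred log2 CPM profile of the 6 members. Among keratin and keratin-associated genes these were Krtap3-3 (0.48), Krtap3-2 (0.50), Krtap10-4 (0.52), Krtap10-10 (0.52) and Krtap5-5 (0.53), all cross-linking proteins of the shaft. Among other genes they were Crnn (0.33), a protein of cornified epithelia, Prr9 (0.46), Crym (0.50), which binds thyroid hormone, Padi3 (0.52), an enzyme that modifies trichohyalin, and S100a3 (0.54), a calcium-binding protein of the hair cuticle. The median over all genes was 3.52, and among the members Krt83 was closest at 0.45 and Krt84 farthest at 2.42. Between them were Krt82 at 0.60, Krt86 at 0.71, Krt85 at 0.78 and Krt81 at 1.23. All members but Krt83 were thus farther from the mean profile, which includes Krt84, than every gene named here. Crnn averaged 178 ± 124 CPM in pre-MCS-01, 0.714 ± 0.424 in post-MCS-01, 266 ± 222 in DSCG and 125 ± 87.3 CPM in blank wounds.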

How the data were processed

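Total RNA of wounds from 12 mice was sequenced with an Illumina TruSeq RNA kit, per the labels' protocols, which name no strand setting. Each deposited file lists unnormalized counts of reads by gene symbol. The authors used FastQC, TopHat2, Bowtie2, HTSeq, limma and mm10, per the submitters' processing notes. Versions, settings and annotation are not given in the sources used here. The files have 24062 genes and 5 summary lines. The lines kept out of library sizes and tests include alignments to several places (17.2% to 23.4% of all lines' total).

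Groups follow the treatment label. The numbers of the mice all differ, so replicate numbers are only names, given in record order. No 2 files held the same values. Genes with few reads were dropped by edgeR's filterByExpr with default settings, which left 16267, and libraries were scaled by TMM (0.905 to 1.07). Differences were tested with edgeR 4.0.16 in R 4.3.3 (glmQLFit, glmQLFTest, two-sided, 1 mean per group over 12 libraries, biological coefficient of variation 0.347). The Benjamini-Hochberg adjustment ran over all genes tested, and calls needed an adjusted p under 0.05. Standard errors follow from the fold change and its F value. The edgeR fit was tested on simulated data, for pre-MCS-01 against post-MCS-01 only, and the other steps were not tested in this way.

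Levels per kilobase used union exon lengths of GENCODE M21 (95.3% of tested genes). Promoters were matched by symbol for 2 of 6 members. All 6 members are named. Of each list, up to 4 genes with the smallest joint p were named; Krt71 to Krt74 are on 2 lists, and Krt75 and Krt36 were named after their values were seen. Like genes were the 5 closest of each kind, predicted genes left out. The members and lists were chosen with earlier results of these data known. Alternatives were RLE and total-count scaling, no filter, DESeq2 1.42.0, limma 3.58.1 voom with and without quality weights, a fit of 2 groups, leaving out libraries and, chosen after seeing the data, edgeR's newer quasi-likelihood fit and the type II sum without Krt84.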

Additional observations from a re-analysis of the deposited data

How the results depend on the processing

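The members called for pre-MCS-01 against post-MCS-01 were 5 in the reported fit, 0 with limma-voom, 0 without the 3 libraries low in long transcripts and 0 to 5 on leaving out 1 library. For post-MCS-01 against DSCG they were 5 in the reported fit, 0 with a fit of the 2 groups alone, with either limma-voom or without those 3 libraries, and 0 to 6 on leaving out 1 library. For post-MCS-01 against blank they were 0, against 6 with DESeq2, with a fit of the 2 groups or with limma-voom and quality weights, 4 with no filter or with the newer quasi-likelihood fit of edgeR, and 0 to 6 on leaving out 1 library, where DSCG replicate 1 alone gave 6. Pre-MCS-01 against blank had 1 with limma-voom and quality weights. The joint test had 6 with DESeq2 or limma-voom with quality weights and 0 to 5 on leaving out 1 library, again 5 without DSCG replicate 1. RLE and total-count scaling changed none of these member counts. The causes were not tested.

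Counts over all genes moved too. For pre-MCS-01 against post-MCS-01 the 134 calls became 428 with DESeq2, 1 with limma-voom, 3818 with quality weights, 0 without the 3 libraries and 0 to 254 on leaving out 1. For post-MCS-01 against DSCG the 172 became 620, 2, 0, 0 and 0 to 606, and 0 with the 2 groups alone. For post-MCS-01 against blank the 0 became 409 with DESeq2, 255 with 2 groups, 827 with quality weights, 63 with the newer fit, 37 with no filter and 0 to 222. Pre-MCS-01 against blank had 69 with DESeq2, 2 with 2 groups and 2485 with quality weights, pre-MCS-01 against DSCG had 17 with DESeq2, and the joint test had 568 with DESeq2, 1 with limma-voom, 2189 with quality weights, 2 with the newer fit and 0 to 273. Total-count scaling moved the median log2 fold change of all genes by -0.10 for pre-MCS-01 against post-MCS-01.

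No member changed direction in a comparison with post-MCS-01. Directions turned, with no call in the reported fit, as follows. For DSCG against blank, limma-voom with quality weights gave -0.71 for Krt81, -0.40 for Krt82, -0.73 for Krt83 and -0.78 for Krt86, and leaving out 1 library gave -0.99 to 0.12 for Krt84. For pre-MCS-01 against blank, quality weights gave -0.14 for Krt81 and -0.39 for Krt86, dropping the 3 libraries gave -0.29 and -0.54, and leaving out 1 library gave -0.13 to 1.60 and -0.24 to 1.58. For pre-MCS-01 against DSCG, limma-voom gave 0.71 for Krt81, 0.87 for Krt83, 0.52 for Krt85 and 0.59 for Krt86, and with quality weights 0.56, 0.94, 0.46 and 0.39. Leaving out 1 library there gave -1.33 to 0.72 for Krt81, -0.62 to 0.36 for Krt83, -1.13 to 0.46 for Krt84, -1.48 to 1.12 for Krt85 and -1.35 to 0.44 for Krt86. Of the 5 most alike genes of each kind, 2 keratin and 4 other genes were shared at a prior count of 0.5, and 3 and 3 over group means. Krt81 and Krt85 in post-MCS-01 wounds, with libraries at 0 reads, are limited by depth. No paired analysis was possible because every mouse has its own number and the labels pair none of them.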
